A study of Mus musculus with 36 samples.

Results

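The comparison described here is that of liver RNA from mice under intermittent hypoxia (IH) with liver RNA from control mice at Zeitgeber time 12 (ZT12), the hour of lights-off. It used 6 of the 36 libraries of the series, chosen by their labels, with 3 mice per condition. The mice were male C57BL/6JRj animals, 16 weeks old, housed 5 per cage with 12 h of light and 12 h of darkness. IH mice were exposed for 4 weeks to 60 cycles per hour that took inspired oxygen down to 5% and back to 21%, from ZT0 to ZT8 on each day. Control mice received air in place of the hypoxic gas over the same 4 weeks, so that the ZT12 livers were taken 4 h after the last hypoxic cycle. The deposited values are FPKM, a unit scaled to transcript length and library size that holds no read counts, so the sequencing depth is unknown.

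Hepatocytes secrete most plasma proteins, and these fold in the endoplasmic reticulum (ER) with the help of chaperones such as BiP, which is made from Hspa5. When unfolded protein accumulates, the sensors ATF6, IRE1 and PERK raise the transcription of chaperones, of disulfide isomerases and of the machinery that removes misfolded proteins from the ER. Demand on this system in the liver follows the daily cycle of feeding, which in mice begins around lights-off, when the circadian repressors PER and CRY are also accumulating.

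The labelled tissue was checked first. Albumin (Alb) lay between 32190 and 36810 FPKM in the 6 libraries, and transthyretin (Ttr) between 3475 and 5246 FPKM. Of 7 erythroid markers 2 passed the filter on low values, of 10 markers of the pancreas 2, of 7 of fat and muscle 2, and of 6 of bile ducts 5.

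One library stood apart from all others. Control replicate 2 had an FPKM sum of 808274, against 561964 to 626371 in the other 35 libraries. Its correlation with the other ZT12 libraries over log2(FPKM + 1) was 0.949 to 0.955, while the others correlated among themselves by 0.982 to 0.994. Genes of the acute phase response, which liver makes in inflammation, were far higher in it. Saa1, which encodes serum amyloid A, read 38.7, 20550 and 31.2 FPKM in control replicates 1 to 3. In the IH livers Saa1 read 106, 2470 and 73.4 FPKM, so that IH replicate 2 was also above its group. Lipocalin 2 (Lcn2) gave 1.78, 1111 and 3.24 FPKM in the controls and 3.74, 47.1 and 2.58 FPKM in IH. Control replicate 2 also departed from the others by transcript length: relative to the mean of the other 35 libraries, its median deviation was 0.70 on the log2 scale for genes of 500 to 1000 nt of exon and fell to -0.51 for genes over 5000 nt. In the other 35 libraries such medians stayed between -0.24 and 0.21. Lists are therefore given with and without this library. Where 2 log2 differences joined by "and" stand in brackets after a gene, the second is without control replicate 2, and it is given where that library turned or strongly moved the value.

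**Figure D1:**
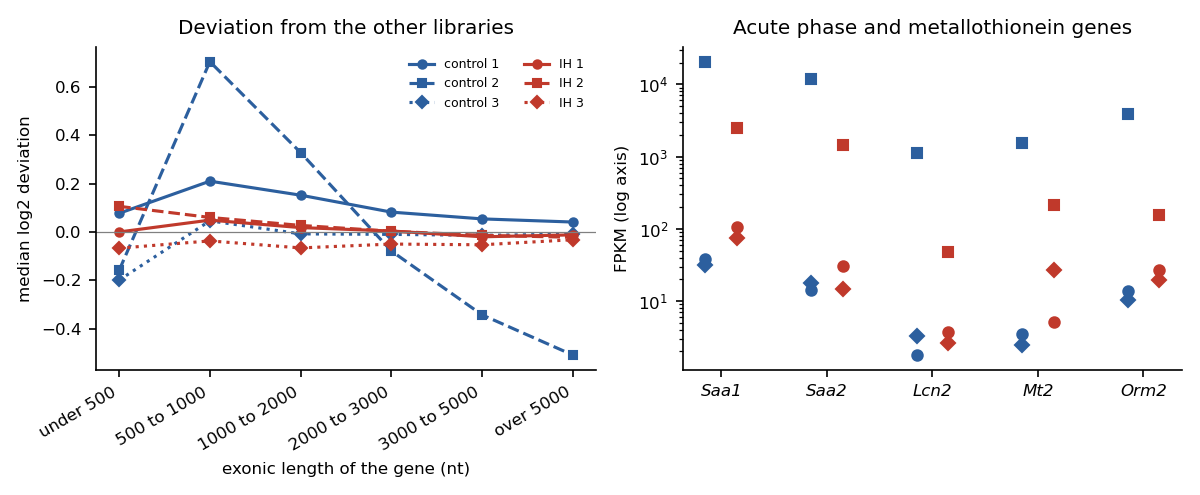
Left, median log2 deviation of each ZT12 library from the mean of the 35 libraries other than control replicate 2 (vertical axis), by exonic length of the gene (horizontal axis). Right, FPKM (log axis) of 5 acute phase and metallothionein genes in the same 6 libraries, controls in blue and IH in red, with circles, squares and diamonds for replicates 1 to 3. The line of control replicate 2 runs from 0.70 at 500 to 1000 nt down to -0.51 over 5000 nt, and its squares are the highest of the controls for all 5 genes.

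The main comparison asked which genes differed between IH and control at lights-off. Of 13215 genes tested with limma on log2(FPKM + 1), 0 were higher and 0 were lower in IH at a Benjamini-Hochberg adjusted p of 0.05 (0% in each direction), so that every gene named below had an adjusted p of 0.809 or more in this comparison. Before adjustment, 519 genes had a P under 0.05. At a nominal P of 0.01, 29 genes were higher (0.219%) and 28 lower (0.212%). Without control replicate 2 the same limma fit called 1 gene, the small nucleolar RNA Snora15, as lower in IH. That fit gave 51 higher and 159 lower at the nominal P, with 1205 genes under 0.05 before adjustment. Leaving out IH replicate 2 gave 1 call as well. When all 36 libraries shared 1 estimate of the spread, 36 genes were called higher and 66 lower, and 0 of either when control replicate 2 was left out of that fit. All 3 IH values lay above all 3 control values for 838 genes (6.34%) and below them for 891 genes (6.74%). Such counts for the lists below are to be read beside these shares. Among the lists near them were targets of hypoxia-inducible factor (7.692% above and 3.846% below), cholesterol synthesis (8% and 4%) and the TCA cycle (5.263% and 10.53%). Without control replicate 2 the median of all genes was -0.04, and 5068 of 13215 were above 0. P-values measure the spread between these mice.

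Among the 10 genes of smallest P that lay higher in IH were Derl3, Ero1lb and Bhlha15. Derl3, which encodes Derlin-3 of the channel that moves misfolded proteins out of the ER, read 3.29, 9.32 and 4.42 FPKM in IH replicates 1 to 3. Its control values were 0.342, 1.27 and 0.840 FPKM. Every IH liver was above every control liver, and the log2 difference was 1.81 ± 0.36 (standard error). Ero1lb, the oxidase that recharges protein disulfide isomerase, read 22.0, 23.8 and 20.0 FPKM in IH against 11.1, 9.52 and 13.7 FPKM in control (log2 difference 0.89 ± 0.17). Bhlha15 encodes MIST1, a transcription factor of secretory cells. It read 0.663, 1.06 and 0.811 FPKM in IH and 0.111, 0.355 and 0.222 FPKM in control (log2 difference 0.59 ± 0.11). All 3 genes kept their groups apart, and the differences without control replicate 2 were 1.98, 0.78 and 0.66.

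A list of 24 genes of the unfolded protein response, all of which passed the filter, lay higher in IH throughout. All 24 differences were above 0, with a median of 0.61, where 7626 of the 13215 genes tested were above 0 and their median was 0.03. In 15 of the 24 all IH values lay above all control values, and in 0 below. None reached an adjusted p of 0.05, and 2 passed the nominal P of 0.01, or 6 with the replicate number as a block (Creld2, Sdf2l1, Hspa5, Dnajb11, Manf and Hyou1, without Dnajc3). The list and its members were chosen with earlier results of these data known, so these counts describe the list and do not test it. Its members are all described, also those chosen after their values were seen. The median was 0.63 without control replicate 2, and 22 of 24 were above 0. With libraries scaled by the median of ratios the median was 0.53, and the genes with groups apart numbered 9. The livers differed among themselves as well: IH replicate 2, the IH liver with raised Saa1, had the highest summed FPKM of these genes (3774, against 2257 and 2727 in the other IH livers). The control sums were 1515, 1729 and 2117 FPKM, and without IH replicate 2 the list's median was 0.41.

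The promoters of these genes were searched for a known element of this response. Its presence is a property of the genes, so the shares below are not a measurement of the IH livers. The ER stress response element is CCAAT, then 9 bases of any kind, then CCACG, and was looked for on both strands in the 250 bases before each RefSeq gene start (GRCm38.p6), after the values of the genes were known. It was present in 7 of the 21 list genes that have a window (33.3%), in 19 of the 10502 tested genes with a window (0.181%) and in 35 of 27025 RefSeq genes (0.13%). Of the 19 tested genes, 12 are outside the list. Their median difference was 0.31, or 0.53 without control replicate 2, with 11 of 12 above 0. The groups were apart in 2, Derl3 and Ero1lb, which were named above for their small P. Over all genes tested, 7626 of 13215 were above 0 and 6.34% had all IH above all control. The 7 list genes had a median of 0.76 (0.72 without control replicate 2). The 14 list genes with a window and no match had a median of 0.34 (0.46 without that library). Among the 12 was Syvn1, which encodes the ubiquitin ligase HRD1 that marks misfolded ER proteins. Syvn1 read 47.0, 114.5 and 79.4 FPKM in IH and 29.0, 18.7 and 49.8 FPKM in control (log2 difference 1.30 ± 0.43), so that its lowest IH value was below its highest control value. Alg12, a mannosyltransferase of the ER, was also among them (log2 difference 0.52). It is transcribed away from Creld2, and the windows of these genes overlap on chromosome 15, where both hold the same copy of the element. Also among the 12 were Xlr3a (0.366), Xlr3b (0.355) and Xlr3c (0.128), a family of genes on the X chromosome. The windows of 6 genes are shown because they hold the element, with its outer parts in capitals, 5′ to 3′ on the strand of the gene. They lie at chr2:34771840-34772089 (Hspa5, plus strand), chr10:86705445-86705694 (Hsp90b1, minus strand), chr14:118937682-118937931 (Dnajc3, plus strand), chr15:88819396-88819645 (Creld2, plus strand), chr10:75893148-75893397 (Derl3, plus strand) and chr19:6046326-6046575 (Syvn1, plus strand).
Hspa5: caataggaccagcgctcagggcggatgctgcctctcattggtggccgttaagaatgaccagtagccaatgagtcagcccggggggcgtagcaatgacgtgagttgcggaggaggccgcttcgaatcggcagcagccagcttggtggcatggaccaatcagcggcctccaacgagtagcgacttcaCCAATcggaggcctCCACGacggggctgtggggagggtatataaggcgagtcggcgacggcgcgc
Hsp90b1: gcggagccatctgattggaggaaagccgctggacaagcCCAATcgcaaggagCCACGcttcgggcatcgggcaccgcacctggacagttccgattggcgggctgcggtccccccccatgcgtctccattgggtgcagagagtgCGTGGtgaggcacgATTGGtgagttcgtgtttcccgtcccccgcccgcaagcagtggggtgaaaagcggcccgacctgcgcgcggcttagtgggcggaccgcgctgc
Dnajc3: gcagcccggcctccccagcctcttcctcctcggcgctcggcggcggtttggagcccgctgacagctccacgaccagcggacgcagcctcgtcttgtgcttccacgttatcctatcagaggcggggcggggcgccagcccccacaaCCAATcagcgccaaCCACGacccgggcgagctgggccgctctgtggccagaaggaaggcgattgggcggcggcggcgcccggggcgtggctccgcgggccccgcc
Creld2: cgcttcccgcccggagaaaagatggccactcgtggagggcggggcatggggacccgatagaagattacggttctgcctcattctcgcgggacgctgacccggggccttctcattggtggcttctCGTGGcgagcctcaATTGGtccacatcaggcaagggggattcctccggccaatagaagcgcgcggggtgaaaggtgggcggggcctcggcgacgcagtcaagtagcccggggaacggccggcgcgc
Derl3: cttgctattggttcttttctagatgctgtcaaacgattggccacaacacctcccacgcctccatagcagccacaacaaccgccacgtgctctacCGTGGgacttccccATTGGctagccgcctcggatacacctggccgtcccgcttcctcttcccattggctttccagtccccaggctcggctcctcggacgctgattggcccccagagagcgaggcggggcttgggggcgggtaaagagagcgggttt
Syvn1: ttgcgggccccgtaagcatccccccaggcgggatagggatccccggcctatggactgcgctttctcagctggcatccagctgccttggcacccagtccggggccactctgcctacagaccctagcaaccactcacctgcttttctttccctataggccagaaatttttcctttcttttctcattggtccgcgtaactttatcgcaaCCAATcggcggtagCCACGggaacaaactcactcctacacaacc
In Creld2 and Derl3 the capitals read CGTGG and ATTGG, since the element is on the other strand there, and Hsp90b1 holds it once on each strand.

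Among the chaperones themselves, Hspa5 read 341, 709 and 467 FPKM in IH replicates 1 to 3. The controls read 157, 210.1 and 319.5 FPKM. Means were 506 ± 187 FPKM in IH and 229 ± 82.9 FPKM in control (SD, n = 3 each), and the groups did not overlap. The log2 difference was 1.14 ± 0.35. Hyou1, a large HSP70-like chaperone that works as an exchange factor for BiP, lies at chr9:44379490-44392369 on mm10. It read 65.0, 113 and 70.3 FPKM in IH and 26.5, 21.5 and 48.1 FPKM in control, again with no overlap. Its log2 difference of 1.38 ± 0.34 had the smallest P of the list. Dnajc3, a co-chaperone of BiP that also inhibits the kinase PERK, read 43.5, 60.5 and 48.7 FPKM in IH and 28.5, 24.0 and 36.8 FPKM in control (log2 difference 0.76 ± 0.21). These were the 2 genes of the list at the nominal P of 0.01. Hsp90b1, the HSP90 of the ER, followed with a log2 difference of 0.78 and the groups apart.

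Genes for enzymes and helpers of folding showed the same order of groups. Pdia4, a protein disulfide isomerase, read 71.7, 164 and 92.7 FPKM in IH and 35.7, 29.4 and 64.8 FPKM in control (log2 difference 1.31 ± 0.39). Creld2, an ER protein induced by unfolded protein, read 58.8, 180.4 and 85.6 FPKM in IH and 16.4, 44.9 and 39.5 FPKM in control (log2 difference 1.62 ± 0.50). Its IH mean was 108 ± 63.9 FPKM and its control mean 33.6 ± 15.2 FPKM (SD, n = 3 each). Neither gene had overlapping groups. Sdf2l1 (log2 difference 1.40), Manf (0.81), Dnajb11 (0.78), Pdia3 (0.62), Pdia6 (0.60) and Canx (0.47 and 0.27) also had every IH value above every control value. So had Sel1l, the partner of HRD1, at 20.6, 26.9 and 23.2 FPKM in IH against 14.6, 10.4 and 18.3 FPKM in control (log2 difference 0.69). Edem1 (0.33) and Vimp (0.29), of the same disposal route, completed the 15.

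The transcription factors of the list were nearer to no difference. Xbp1, the target of IRE1, differed by 0.26 on the log2 scale, Atf6 by 0.39, Atf4 by 0.12, Ddit3 by 0.30, Atf3 by 0.29 and Trib3, a target of ATF4 and CHOP, by 0.17. In all 6 the groups overlapped. Without control replicate 2 Xbp1 was at -0.02 and Trib3 at -0.06, the list's only values below 0, and Atf6 was at 0.11, Atf4 at 0.08, Ddit3 at 0.70 and Atf3 at 0.49. FPKM of Xbp1 does not separate its spliced from its unspliced form. Dnajb9, Herpud1 and Calr were the other members with overlapping groups, at 0.78, 0.35 and 0.47 (0.44, 0.13 and 0.65 without control replicate 2). Among 16 heat shock genes of the cytosol and mitochondria the median was 0.34 (0.47 without control replicate 2), with 13 above 0 and 0 with all IH above all control. Hspa4l (log2 difference 0.56), Hsph1 (0.75) and Bag3 (0.64) had the smallest P of that list, and in each the groups overlapped. Of these, Hsph1 passed the nominal P of 0.01 with the replicate number as a block.

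**Figure D2:**
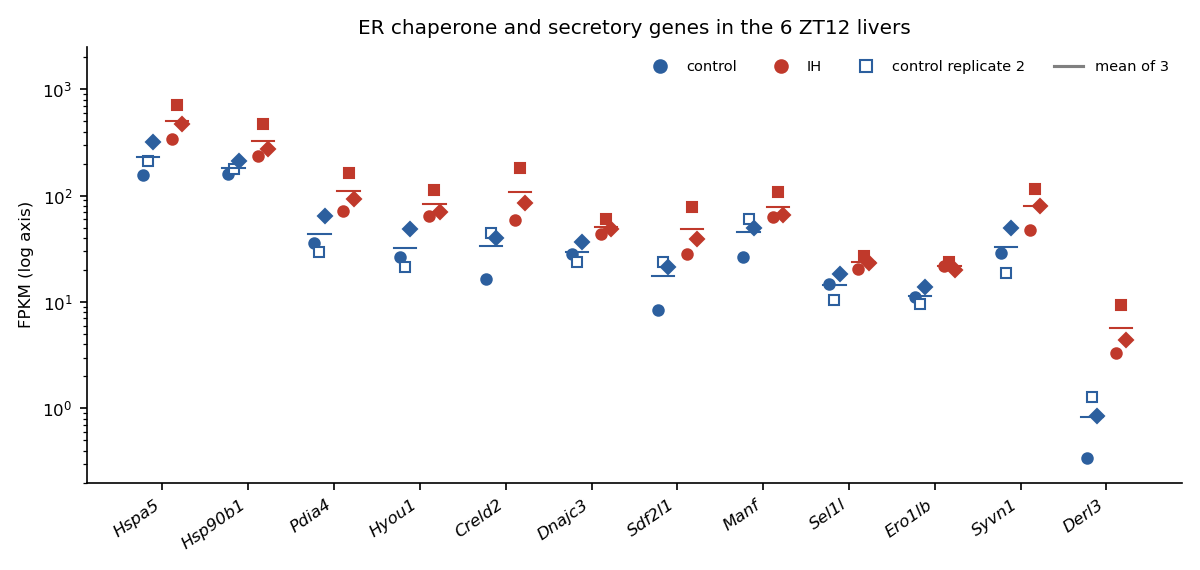
FPKM (vertical log axis) of 12 ER chaperone and secretory genes in each of the 6 ZT12 livers, controls in blue and IH in red, with circles, squares and diamonds for replicates 1 to 3, an open square for control replicate 2 and a bar for the mean of 3. For 11 of the 12 genes every IH point is above every control point, and for Syvn1 the lowest IH point (47.0) is under the highest control point (49.8).

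The same list can be read at the other 5 time points, where other mice were used. Its median log2 difference, IH minus control, was 0.36 at ZT0, -0.52 at ZT4, 0.04 at ZT8, 0.61 at ZT12, -0.02 at ZT16 and 0.27 at ZT20. At ZT0 and at ZT20, 23 of the 24 genes were above 0. The groups were apart, with IH above, in 1 gene at ZT0 and 7 at ZT20 (606 and 1558 of all 13215 genes). All IH values lay below all control values in 16 of the 24 genes at ZT4, and in 0 at ZT12. Over all 13215 genes at ZT4 these were 1029 below and 3534 above. Hspa5 in control had a mean of 156 ± 18.4 FPKM at ZT8, 229 ± 82.9 FPKM at ZT12 and 402.5 ± 27.8 FPKM at ZT16. In IH it had 173.5 ± 33.9, 506 ± 187 and 403 ± 129.7 FPKM at these times (SD, n = 3 each). The Hspa5 mean in IH at ZT12 rested in part on IH replicate 2 (709 FPKM), since the other IH livers (341 and 467 FPKM) lay on either side of the IH mean at ZT16. Creld2 gave 12.0, 33.6 and 66.5 FPKM in control and 12.1, 108 and 57.7 FPKM in IH at ZT8, ZT12 and ZT16 (means of 3).

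**Figure D3:**
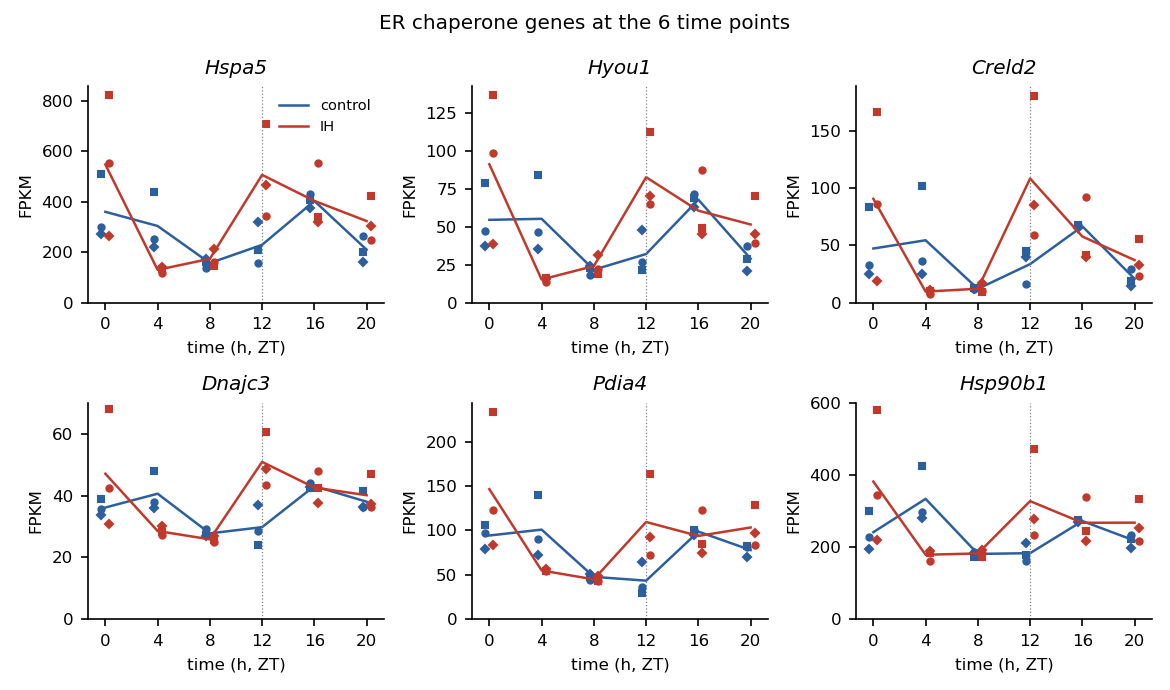
FPKM (vertical axis) of 6 ER chaperone genes against time of day (ZT, h), with 1 point per mouse and lines through the means of 3 mice, control in blue and IH in red; the dotted line marks ZT12. In each panel the IH mean is below the control mean at ZT4 and above it at ZT12, and for Hspa5 the means are 506 and 229 FPKM at ZT12 and 403 and 402.5 FPKM at ZT16.

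Whether the ZT12 difference was unlike that at the other times was tested over all 36 libraries, as the ZT12 difference minus the mean of the other 5. Limma was used with adjustment over 13215 genes. The difference was higher at ZT12 than at the other times for 158 genes (1.2%) and lower for 478 (3.62%). Calls of higher or lower against the other times refer to this difference, not to the level of the gene. Leaving out control replicate 2 gave 8 and 147, and 76 genes were called in the same direction with and without it. Leaving out IH replicate 2 gave 1 and 20, IH replicate 3 gave 10 and 32, control replicate 1 gave 740 and 825, and control replicate 3 gave 1268 and 1603. Of the unfolded protein response list 4 genes were called higher: Dnajc3 (0.81, adjusted p = 0.0255), Pdia4 (1.33, 0.0271), Canx (0.47, 0.0379) and Hyou1 (1.45, 0.0418). Leaving out control replicate 2, IH replicate 2 or IH replicate 3 left 0 of the 24 called, and leaving out control replicate 3 gave 13. The mean of the other times includes ZT4, where the list's median was -0.52.

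The gene of smallest P in that test was Med30, a subunit of the Mediator complex that links transcription factors to RNA polymerase II. At ZT12 it read 4.01, 3.64 and 3.85 FPKM in IH and 5.65, 5.26 and 5.45 FPKM in control. The IH values were all lower, and the log2 difference was -0.42 ± 0.14. At the other 5 times the difference was above 0, between 0.19 at ZT0 and 0.39 at ZT4, and the contrast was -0.68 ± 0.10 (adjusted p = 0.00312; -0.70 and 0.00647 without control replicate 2). Sin3b, a scaffold of a histone deacetylase complex, read 27.1, 25.0 and 23.7 FPKM in IH and 36.0, 38.2 and 28.9 FPKM in control at ZT12 (contrast -0.58, adjusted p = 0.00366). Pbx4, a homeodomain factor, read 0.260, 0.223 and 0.226 FPKM in IH and 0.666, 0.432 and 0.598 FPKM in control (contrast -0.61, adjusted p = 0.00325). The locus Gm15421 (contrast -0.50) and Abhd17a, a depalmitoylating enzyme (-0.53), completed the 5 lower genes of smallest P.

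Ttll8, a tubulin glycylase, was the higher gene of smallest P. It read 0.476, 0.473 and 0.467 FPKM in IH and 0.212, 0.0278 and 0.332 FPKM in control at ZT12, against IH below control in means at every other time (contrast 0.43, adjusted p = 0.00312). Ipo13, a nuclear import receptor, read 4.44, 4.90 and 4.52 FPKM in IH and 3.25, 3.49 and 3.54 FPKM in control (contrast 0.41, adjusted p = 0.0149). Gbf1, which activates ARF proteins for traffic between the ER and the Golgi, had a contrast of 0.53, the histone gene Hist1h2bh of 0.69 and the zinc transporter gene Slc39a6 of 0.38. Called in this test and in each of its 13 alternatives were 5 genes, Med30, Sin3b, Pbx4, Ttll8 and Gnb2, a G protein subunit. Gnb2 (contrast -0.59) was chosen after its values were seen.

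**Figure D4:**
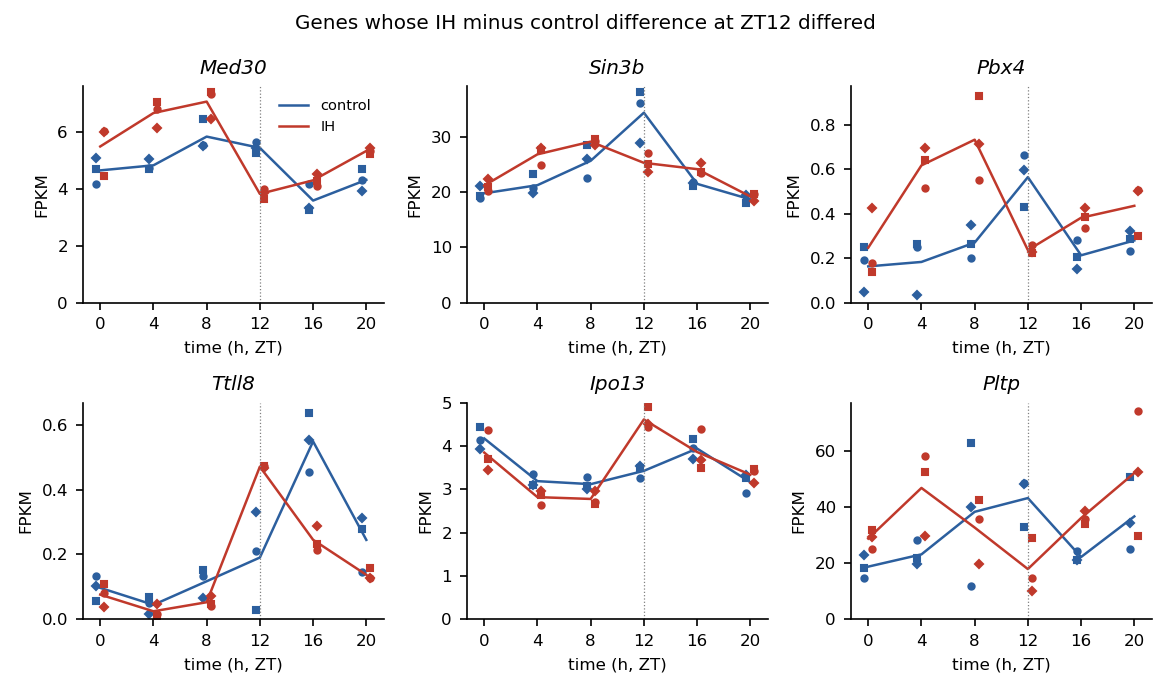
FPKM (vertical axis) of Med30, Sin3b, Pbx4, Ttll8, Ipo13 and Pltp against time of day (ZT, h), with 1 point per mouse and lines through the means of 3 mice, control in blue and IH in red; the dotted line marks ZT12. In Med30 and Pbx4 the IH mean is below the control mean at ZT12 and above it at the other 5 times, and for Ttll8 the order is the opposite at each time.

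Beside Derl3, Ero1lb and Bhlha15, the other 7 of the 10 genes of smallest P that lay higher in IH at ZT12 also had groups that did not overlap, and of the 10 the smallest P was that of Pla2g4b and then of Fam222a. Serpine2, an inhibitor of thrombin, read 13.0, 13.3 and 17.2 FPKM in IH and 7.13, 4.50 and 8.05 FPKM in control (log2 difference 1.06 ± 0.23). Fndc3b, a membrane protein of the ER, read 3.50, 4.66 and 3.03 FPKM in IH and 1.33, 1.61 and 1.71 FPKM in control (log2 difference 0.88 ± 0.18). Its IH minus control difference was also higher at ZT12 than at the other times (contrast 1.04, adjusted p = 0.0317, or 0.0715 without control replicate 2). Fam222a (log2 difference 0.73), 6430548M08Rik (0.57), Tes (0.49), Pla2g4b (0.39) and the engulfment adaptor Gulp1 (0.24) completed the 10. Their levels were low, at most 2.28 FPKM in any of the 6 livers.

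Of the genes lower in IH, Lgals1 had the smallest P. It encodes galectin-1, a lectin of macrophages, stromal cells and lymphocytes, and lies at chr15:78926725-78930465 on mm10. It read 6.57, 8.74 and 5.84 FPKM in IH and 16.6, 28.7 and 16.5 FPKM in control. The groups were well apart, with a log2 difference of -1.40 ± 0.26 and of -1.14 without control replicate 2. Cib3, a calcium-binding protein, read 14.5, 14.7 and 13.3 FPKM in IH and 34.5, 54.6 and 22.9 FPKM in control (log2 difference -1.26 ± 0.30). Its IH minus control difference was lower at ZT12 than at the other times with and without control replicate 2 (contrast -1.57, adjusted p = 0.0148, and -1.26, 0.0491). The remaining 8 were at or below 1.53 FPKM in every liver: Gm12718 (log2 difference -0.66), Rwdd3 (-0.48), 1700047M11Rik (-0.45), Serpinb1a (-0.36), Gm15421 (-0.34), Pbx4 (-0.34), Evi2a (-0.33) and Ly6g6d (-0.29).

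Markers of macrophages and other leukocytes lay lower in IH as a list. All 12 had differences below 0 (median -0.89), 6 with all IH below all control, and none passed the nominal P of 0.01, though Cd5l did with the replicate number as a block. Control replicate 2 set much of the size: the summed FPKM of the 12 was 31.6, 38.1 and 24.8 in IH and 44.2, 394 and 46.2 in control. The order of these sums did not rest on that library, since both other controls were above all 3 IH livers. The median without it was -0.31, with 11 of 12 below 0. S100a8 (-1.84) and S100a9 (-2.18) had the largest differences. They rested on control replicate 2 (106 and 97.3 FPKM), since the other 5 libraries of ZT12 read 1.73 FPKM or less. Without it S100a8 was the only marker above 0. Cd5l, a protein secreted by Kupffer cells, read 8.76, 9.92 and 6.13 FPKM in IH and 14.3, 49.0 and 13.7 FPKM in control (log2 difference -1.30; -0.72 without control replicate 2). Adgre1, which encodes F4/80, read 0.671, 1.05 and 0.746 FPKM in IH and 1.16, 2.28 and 1.32 FPKM in control. Cd79a of B cells had a log2 difference of -0.22 with overlapping groups. In bulk liver, fewer cells of a type and less RNA per cell cannot be told apart. The hepatocyte list had a median of 0.19 (-0.06 without control replicate 2), stellate cells 0.11 (0.01), endothelium 0.03 (-0.05) and bile ducts -0.05 (0.10). Lyve1 of endothelium lay above all controls, with a log2 difference of 0.54, while Clec4g (-0.18 and -0.06), Des (-0.22 and 0.01), Lrat (0.23 and 0.01), Rgs5 (0.25 and -0.04), Hnf4a (0.46 and 0.02), Krt19 (-0.13 and 0.19), Sox9 (0.29) and Spp1 (-0.12) had groups that overlapped. Kdr overlapped too (0.29 and -0.20), and without control replicate 2 its IH values were all below the controls. Cfd, the protease adipsin, was near its lower limit in IH (0.0965, 0.0878 and 0 FPKM) and read 0.638, 0.191 and 0.718 FPKM in control (log2 difference -0.50). The other markers tested outside the liver's own cells were Fabp4 (-0.29 and -0.07), Alas2 (-0.25), Hbb-bs (-1.61 and -0.75), Cela1 (-0.17 and 0.05) and Cela2a (-0.34 and -0.05), all with overlapping groups.

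The interferon list also lay lower in part. Of 27 genes, 9 had all IH below all control and 1 above, with a median of -0.14 (-0.10 without control replicate 2). Psmb9, a subunit of the immunoproteasome, read 5.81, 5.16 and 5.26 FPKM in IH and 10.6, 16.4 and 8.01 FPKM in control (log2 difference -0.93 ± 0.25). Gbp3, a guanylate-binding protein, had a log2 difference of -0.29. Rsad2 went the other way (0.29), with its groups apart. The acute phase list had a median of -0.29, which became 0.50 without control replicate 2, and 20 of its 22 genes were then above 0. Its genes of smallest P were Serpina3n (0.37; 0.70 without control replicate 2), Cp (-0.36; 0.10) and Hpx (-0.74; 0.25). Orm3 and Kiss1, chosen after their values were seen, were 1.41 and 0.48 higher on the log2 scale in IH when control replicate 2 was left out. With it, Orm3 was at -0.76 and Kiss1 at 0.03.

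Nuclear genes for the respiratory chain, the ribosome and the proteasome lay lower in IH with all 6 libraries. Complex I had 35 of 37 differences below 0, a median of -0.31 and 8 genes with all IH below all control. Leaving out control replicate 2 took the median to -0.13, and removing the trend with length and GC content as well to -0.07. Complexes II to V had 34 of 40 below 0 and a median of -0.27 (-0.13; -0.07). For the ribosome 78 of 80 were below 0 with a median of -0.33, but -0.03 without control replicate 2. The proteasome had 27 of 31 below 0 and a median of -0.18 (-0.09). With the trend removed and control replicate 2 left out the ribosome turned to 0.03 and the proteasome was at -0.03, and under the median of ratios without that library they were at 0.04 and -0.03. Against the other times 17 genes of complex I, 13 of complexes II to V, 23 of the ribosome and 8 of the proteasome were called lower, and 1, 0, 0 and 2 without control replicate 2. Ndufs4 of complex I read 35.0, 33.3 and 34.5 FPKM in IH and 41.1, 68.6 and 37.1 FPKM in control (contrast -0.60, adjusted p = 0.0220; 0.0376 without control replicate 2). Psmb3, a core subunit of the proteasome, read 92.1, 90.2 and 77.5 FPKM in IH and 117, 150.3 and 99.9 FPKM in control (contrast -0.61, adjusted p = 0.0104; 0.0351). Psma7 was called in both as well (contrast -0.58, adjusted p = 0.0218; 0.0455). Of the other named members, given by the same contrast, Ndufa6 (-0.47), Ndufs8 (-0.53), Atp5d (-0.49), Atp5h (-0.56), Psmb1 (-0.44), Rpl37a (-1.14), Rps27l (-0.44) and Cox6a1 (-0.47) were called only with control replicate 2. Atp5k (-0.80) and Rpl26 (-0.79) were not called. Of the TCA cycle list, 11 of 19 were above 0 with all libraries and 3 without control replicate 2, with medians of 0.10 and -0.11. Pdhb (0.22) lay above all controls and Suclg1 (-0.16) below, and Cs (0.27 and 0.08) and Idh3a (0.19 and -0.01) overlapped.

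**Figure D5:**
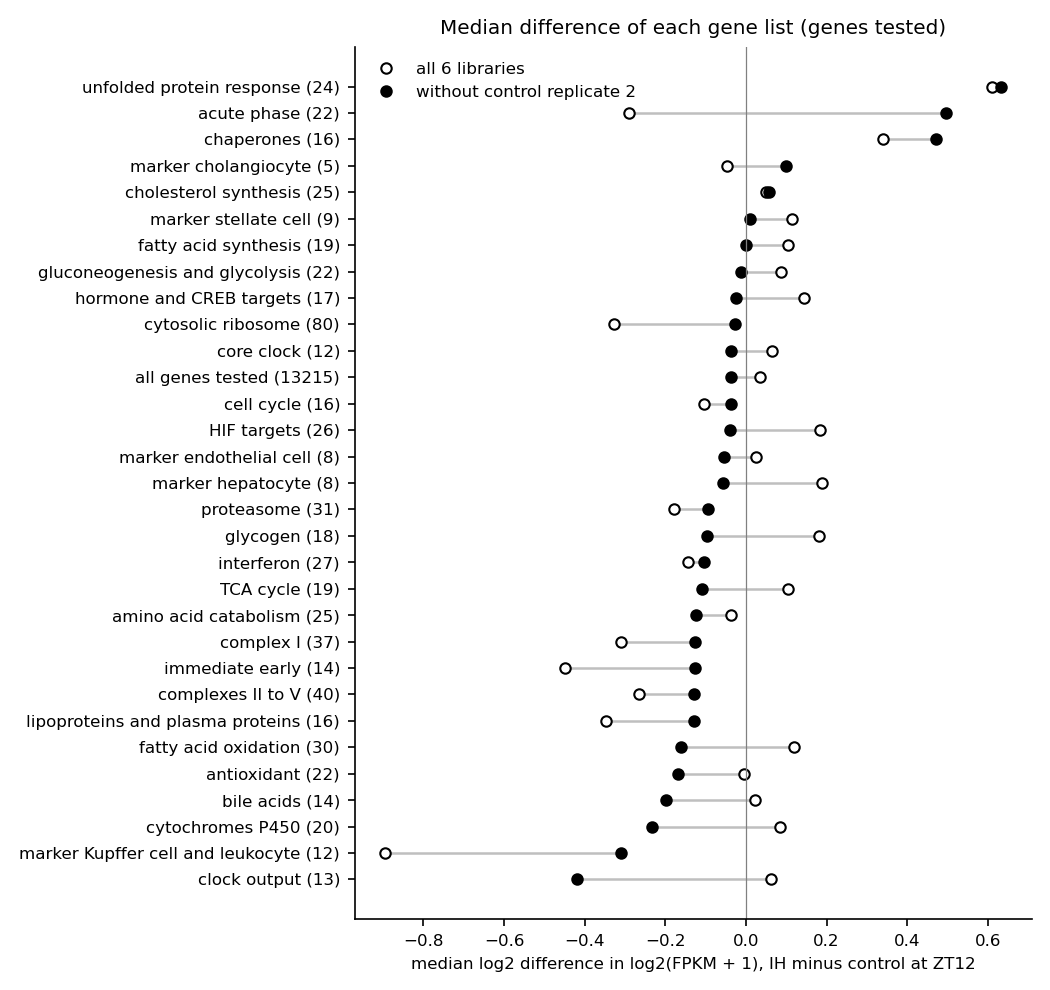
Median log2 difference, IH minus control at ZT12, of each list with 5 or more genes tested (horizontal axis; number of genes in brackets), with all 6 libraries (open circles) and without control replicate 2 (filled circles). The unfolded protein response is at 0.61 and 0.63, while the medians of the acute phase list (-0.29 and 0.50), the ribosome (-0.33 and -0.03) and the macrophage and leukocyte markers (-0.89 and -0.31) move with that library. Lists were chosen with earlier results of these data known.

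Genes of glucose use were mixed. Of the 22 genes of gluconeogenesis and glycolysis, 4 had all IH above all control (18.18%, against 6.34% of all genes tested). In 1 all IH lay below (4.545%, against 6.74%). Pklr, the liver pyruvate kinase, read 197, 171 and 233 FPKM in IH and 95.9, 67.4 and 169 FPKM in control (log2 difference 0.94 ± 0.33). Gpi1 read 88.2, 101 and 94.0 FPKM in IH and 71.6, 73.0 and 76.5 FPKM in control (log2 difference 0.35). In both genes the groups did not overlap, and each stayed higher without control replicate 2 (0.64 and 0.35). G6pc, which releases free glucose, read 79.2, 188 and 300.4 FPKM in IH and 19.7, 54.3 and 116 FPKM in control, a log2 difference of 1.70 ± 0.70 with overlap. Each IH value of G6pc was above the control of the same number, and with the replicate number as a block G6pc and Pklr passed the nominal P of 0.01, which they did not without it. Fbp1 (0.09), Ldha (-0.31 and -0.06) and Pck1 (-0.05 and -0.14) had overlapping groups. Of the 18 glycogen genes 11 were above 0 with a median of 0.18, and -0.10 without control replicate 2. Pygl, glycogen phosphorylase, read 132, 163 and 190.1 FPKM in IH and 111, 105 and 143 FPKM in control (0.43), and Ppp1r3b (0.73) and Gys2 (0.27 and -0.11) also overlapped. Slc37a4, the transporter that feeds glucose 6-phosphatase, had its groups apart (0.30).

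In lipid metabolism the lists differed. Fatty acid synthesis had a median of 0.10 (0.00 without control replicate 2). Elovl6, an elongase, read 29.8, 29.6 and 32.3 FPKM in IH and 17.8, 15.8 and 25.9 FPKM in control (log2 difference 0.63). Acly, which makes cytosolic acetyl-CoA, read 70.4, 89.2 and 71.3 FPKM in IH and 41.9, 66.1 and 57.3 FPKM in control (0.49). Both had their groups apart, and Fasn (0.32 and 0.63) and Gpam (0.45 and -0.001) did not. Cholesterol synthesis had a median of 0.05 (0.06), with Srebf2 (0.55 and 0.30) above all controls and Acat2 (-0.32) below them. Fatty acid oxidation had a median of 0.12 and 22 of 30 above 0, but -0.16 and 7 of 30 without control replicate 2. Acaa1b, the thiolase of peroxisomes, read 368, 405 and 296 FPKM in IH and 589, 464 and 539 FPKM in control (log2 difference -0.58). Pdk4 (0.45), which shuts pyruvate dehydrogenase, had its groups apart, and Plin5 (0.40) and Cpt2 (0.12 and 0.07) had not. Of lipoproteins and plasma proteins 13 of 16 were below 0 and 6 had all IH below all control, with a median of -0.35 (-0.13 without control replicate 2). Pltp, the phospholipid transfer protein of plasma, read 14.6, 29.1 and 9.91 FPKM in IH and 48.7, 32.8 and 48.2 FPKM in control (log2 difference -1.34 ± 0.37). Its IH minus control difference was lower at ZT12 than at the other times with and without control replicate 2 (contrast -1.87, adjusted p = 0.0267, and -2.06, 0.0454). Apoc2 (-0.62 and -0.20), Apoa1 (-0.59 and -0.15) and Mttp (0.45 and 0.18) were the others named. In the bile acid list Cyp7b1 was above all controls at 164, 145 and 197 FPKM against 83.7, 125 and 105 FPKM (log2 difference 0.69). The sterol export pair Abcg5 (-0.71) and Abcg8 (-0.82) lay below all controls, and the list's median was 0.02 (-0.20).

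Amino acid catabolism had a median of -0.04 (-0.12 without control replicate 2). Agxt, which detoxifies glyoxylate, read 96.8, 77.5 and 87.1 FPKM in IH and 144, 151 and 109.9 FPKM in control (log2 difference -0.62 ± 0.17). Cbs, of the transsulfuration route to cysteine, read 74.7, 70.9 and 60.6 FPKM in IH and 101, 99.8 and 86.6 FPKM in control (-0.48). In both genes all IH values were below all controls, and Ass1 (-0.55 and -0.30) of the urea cycle overlapped. The P450 list had a median of 0.09, and of -0.23 without control replicate 2, with Cyp2c37 (0.65 and 0.02), Cyp2f2 (0.45 and 0.10) and the receptor gene Nr1i2 (-0.18). Hypoxia-inducible factor targets had a median of 0.18 (-0.04), with P4ha2 (0.43) and Ero1l (0.34 and 0.21) above all controls and Hk1 (-0.11) below. Antioxidant genes had a median of -0.004 (-0.17), with Taldo1 (-0.37 and -0.21) below all controls, and Gsta1 (-0.78 and -1.28) and Hmox1 (-0.60 and -0.20) overlapping. Glucocorticoid and CREB targets had a median of 0.14 (-0.02), with Fkbp5 (0.50) above all controls and Ppp1r10 (0.50) and Irs2 (0.37 and 0.25) overlapping. Immediate early genes had 13 of 14 below 0 and a median of -0.45 (-0.13). Zfp36, which degrades inflammatory mRNAs, read 29.6, 26.5 and 30.8 FPKM in IH and 51.2, 44.2 and 34.7 FPKM in control (-0.55), Nfkbia (-0.37) was also below all controls, and Ier2 (-0.69) overlapped. Cell cycle genes had a median of -0.10 (-0.04), with Mcm3 (-0.23) and Mcm5 (-0.25 and -0.16) below all controls and Birc5 (-0.34 and -0.19) overlapping. Genes of the mitochondrial genome were not analysed here.

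The clock was read at a time when its activators are low. None of the 12 core clock genes had groups apart. Arntl, which encodes BMAL1, read 0.670, 1.96 and 1.26 FPKM in IH and 0.164, 0.568 and 0.671 FPKM in control, a log2 difference of 0.63 ± 0.23. The lowest IH value was just under the highest control value. Clock read 1.47, 2.34 and 2.11 FPKM in IH and 1.00, 1.02 and 1.52 FPKM in control (0.44 ± 0.17). In both the IH minus control difference was higher at ZT12 than at the other times (Arntl 0.80, adjusted p = 0.0462, and Clock 0.51, adjusted p = 0.0202). The adjusted p without control replicate 2 was 0.0846 and 0.0537, and for Arntl the call was also lost with the replicate number as a block. Per2 read 9.92, 15.1 and 13.6 FPKM in IH and 8.51, 4.24 and 10.4 FPKM in control (0.72 and 0.39). The other repressors were Per1 (0.02 and -0.24), Per3 (-0.15 and -0.39), Cry1 (0.19) and Cry2 (0.11 and -0.08). The nuclear receptor genes were Rora (-0.09 and -0.28), Nr1d1 (-0.17 and -0.41) and Nr1d2 (0.00 and -0.34), and Npas2 was under 0.03 FPKM in every liver. The clock output list had a median of 0.06, and of -0.42 without control replicate 2, with Gadd45g (-1.81 and -1.16), Bhlhe40 (0.73 and 0.40) and Ciart (-0.47 and -0.87) of smallest P and overlapping groups. Without that library all IH values of Ciart lay below the controls. By limma its contrast against the other times was -0.80 (adjusted p = 0.121), and -1.20 (0.0476) without that library. Of the 13 genes 1 was called lower in that contrast, and 3 without that library (478 and 147 of all 13215 genes).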

How the data were processed

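Liver RNA from 36 mice (polyA-selected, stranded, paired reads of 100 nt) had been aligned by the authors with TopHat2 2.1.1 to mm10, and Cufflinks 2.2.1 gave the deposited FPKM per library. The annotation and any scaling between libraries are not given in the sources used here, and depth is unknown. Which table holds IH and which control was read from the tables' names. Of 24066 symbols on 1 row, 13215 whose average FPKM across all 36 libraries reached 0.1 were tested on log2(FPKM + 1) with limma 3.58.1 (R 4.3.3) and Benjamini-Hochberg adjustment. Fold changes on this scale understate those of low genes. Standard errors are limma's. The 3 IH and 3 control libraries of ZT12 were compared, and the ZT12 difference was set against the mean of the other 5 time points over all 36. Coordinates and lengths are GENCODE M21, promoters RefSeq GRCm38.p6.

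Genes named were the 10 of smallest P in each direction at ZT12, the 5 in each direction against the other times, the core clock, 11 metabolic genes, and from each list up to 6 members past the threshold or 3 of smallest P. Members and lists were chosen with earlier results of these data known. The labels do not say what the replicate number stands for, and the main fits did not use it. Same-numbered IH and control libraries of ZT12 deviated together (r = 0.294, 0.266 and 0.136). Other pairs gave -0.361 to 0.137, the highest being IH replicate 3 with control replicate 1. The replicate number was therefore also tried as a block, a choice made from the same values. Alternatives were another pseudocount, filters, scalings, leaving out each library, sample weights and the block. The code was tested on simulated data. A few genes that this rule names are not reported here.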

Additional observations from a re-analysis of the deposited data

Results flagged for a closer look

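For 41 of the genes named by the fixed rule the difference between IH and control at ZT12 differed from the mean of the other 5 time points, by limma's test of that contrast over all 36 libraries at an adjusted p of 0.05. These include the 5 genes in each direction that the rule takes for their small P in this same contrast. Their calls followed from that choice. Others were named for a small P at ZT12 in the same values. Over all 13215 genes tested, 158 (1.2%) were called higher and 478 (3.62%) lower. Values are log2 contrasts, the ZT12 difference minus the mean of the others. Higher and lower below refer to that contrast, not to the level of the gene. Of the 41, 38 were still called with the replicate number as a block, 14 without control replicate 2, and 4 under every one of the 13 alternatives.

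Higher at ZT12 were the ER genes Hyou1 (1.45), Pdia4 (1.33), Ero1lb (0.88) and Dnajc3 (0.81), the chaperone gene Hspa4l (0.73), Fndc3b (1.04), the clock genes Arntl (0.80) and Clock (0.51), and Hist1h2bh (0.69), Gbf1 (0.53), Ttll8 (0.43), Ipo13 (0.41) and Slc39a6 (0.38).

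Lower at ZT12 in the respiratory chain, proteasome and ribosome were Ndufs4 (-0.60), Ndufs8 (-0.53), Ndufa6 (-0.47), Atp5h (-0.56), Atp5d (-0.49), Cox6a1 (-0.47), Psmb3 (-0.61), Psma7 (-0.58), Psmb1 (-0.44), Rpl37a (-1.14) and Rps27l (-0.44). In lipid and amino acid metabolism they were Pltp (-1.87), Apoa1 (-0.77), Abcg5 (-0.82), Acat2 (-0.59), Agxt (-0.72) and Cbs (-0.42). The others were Taldo1 of the antioxidant list (-0.46), Cib3 (-1.57), Lgals1 (-1.08), Med30 (-0.68), Pbx4 (-0.61), Sin3b (-0.58), Abhd17a (-0.53), 1700047M11Rik (-0.51), Rwdd3 (-0.51), Gm15421 (-0.50) and Ly6g6d (-0.31).

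Canx (0.47), Syvn1 (1.41) and Gnb2 (-0.59), which the rule did not name, were called in the same test.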

How the results depend on the processing

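Counts are of genes at ZT12 unless stated, and settings with control replicate 2 left out together with a second change, or with the length and GC trend removed, were chosen after seeing the data. At an adjusted p of 0.05, 36 genes were higher and 66 lower with all 36 libraries in the fit, 2 lower with sample weights, and 1 lower without control replicate 2 under the median of ratios or with the trend removed. Leaving out 1 library gave 0 to 1 higher and 0 to 1 lower. At the nominal P of 0.01, higher genes numbered 64 with no filter, 16 at a mean of at least 1 FPKM, 45 with quantile normalization, 556 with all 36 libraries, 129 with weights and 50 with the trend removed. Lower genes numbered 72 with no filter, 17 at a mean of at least 1 FPKM, 14 scaled to the median sum, 713 with all 36 libraries and 280 with weights. Without control replicate 2, higher and lower were 95 and 119 under the median of ratios, 116 and 121 with the trend removed, and 125 and 403 with all other libraries in the fit, and 45 and 121 without either replicate 2. Leaving out 1 library gave 13 to 51 higher and 8 to 159 lower.

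Genes with all IH above all control numbered 1863, 1908 and 1571 without control replicate 2 under the median of ratios, with the trend removed, and without IH replicate 2 as well, and genes below 1762, 1774 and 3503. Scaling to the median sum gave 562 below, and all 36 libraries but control replicate 2 gave 2505. Leaving out 1 library gave 1108 to 1752 above and 1097 to 2505 below. For the unfolded protein response, 9 of 24 genes had groups apart under the median of ratios, and 15 to 18 with 1 library left out, with medians of 0.41 to 0.72. Against the other times, higher and lower calls were 277 and 298 under the median of ratios, 300 and 295 with quantile normalization, 8 and 11 under the median of ratios without control replicate 2, and 4 and 8 with the trend removed without it. With the trend removed in all libraries 250 were lower. Leaving out 1 library gave 1 to 1268 higher and 20 to 1603 lower.

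With the replicate block, 36 genes were higher and 33 lower at the nominal P of 0.01, 0 at an adjusted p of 0.05, and 129 higher and 403 lower against the other times. The block ended the calls of Acat2, Apoa1 and Arntl against the other times and added those of Pdia3 and Pdia6. At the nominal P of 0.01 it added Abcg8, Arntl, Cd5l, Creld2, Dnajb11, G6pc, Hbb-bs, Hsph1, Hspa5, Manf, Pklr and Sdf2l1 and ended 1700047M11Rik, Agxt, Cfd, Dnajc3, Gm15421, Ly6g6d, Pltp, Rwdd3 and Slc39a6. It changed no other call of a gene described in the text. Over the named genes at ZT12 and all alternatives, 339 values moved by more than the spread between replicates, 20 passed the threshold and 2625 did neither.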

Other observations

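Some genes of liver metabolism had their IH and control groups apart only when control replicate 2 was left out, and these were chosen after their values were seen. Without that library all IH values lay below all control values in 2505 of the 13215 genes tested (18.96%), and above them in 1231 (9.315%). Hamp2, a relative of the iron hormone hepcidin, read 45.6, 49.1 and 42.1 FPKM in IH replicates 1 to 3 and 99.7, 27.6 and 108 FPKM in control (log2 difference -0.55, and -1.17 without control replicate 2). Slco1a4, an organic anion transporter, read 9.49, 9.91 and 11.9 FPKM in IH and 28.9, 4.99 and 22.2 FPKM in control (-0.49 and -1.21). In both, control replicate 2 was the lowest of the 6 livers and the other controls were the highest.

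Car3, carbonic anhydrase 3, read 579, 409 and 587 FPKM in IH and 1188, 390.5 and 1327 FPKM in control (-0.71 and -1.27). Abcd2, a peroxisomal transporter of fatty acids, read 1.05, 1.17 and 0.532 FPKM in IH and 3.99, 1.05 and 3.19 FPKM in control (-0.88 and -1.27). The aldehyde dehydrogenase gene Aldh3a2 (0.05 and -0.59), the retinol dehydrogenase genes Rdh9 (-0.53 and -0.79) and Rdh16 (-0.33 and -0.91), Hpgd (-0.39 and -0.79), Raet1d (-0.65 and -0.94) and Cyp3a11 (-0.20 and -0.55) had the same order of groups without that library. The lowest adjusted p of these genes by limma without it was 0.161, for Hamp2.

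The highest Saa1 of the 36 livers was in 3 of them, control replicate 2 of ZT12 (20550 FPKM), IH replicate 2 of ZT0 (22870 FPKM) and control replicate 3 of ZT16 (12910 FPKM). The FPKM sums of the last 2 of these were 605730 and 626371.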
